A study of Mus musculus domesticus with 12 samples.

Results

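Rn7sk, Rn7s1, Rn7s2, Rmrp, Rpph1, Terc and Vaultrc5 encode short structured RNAs without a poly(A) tail, and they were followed here across mouse erythroid precursors in which a catalytic subunit of the RNA exosome was knocked down. The 7 symbols were matched to the deposited gene identifiers by name through the GENCODE annotation, which gave 8 identifiers of the 55385 in the files, since Rmrp has 2. Of these, 6 had reads and passed the filter on low counts. The other 2, the shorter gene model of Rmrp and Vaultrc5, were listed at 0 in all 12 libraries.

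The groups were shDis3, shExosc10 and shLuc, with 4 libraries each. Every group consisted of C57BL/6J fetal liver cells at E14.5 that had been depleted of mature lineages and infected with a retrovirus carrying a short hairpin RNA (shRNA). The hairpin was directed against Dis3 in shDis3, against Exosc10 in shExosc10 and against firefly luciferase, which mouse cells lack, in the control shLuc. After infection the cells were kept for 2 days in erythroid expansion medium, and GFP-positive cells without the late marker Ter119 and with intermediate or positive CD71 were sorted. Total RNA was sequenced with a stranded kit for picogram inputs that does not select poly(A) tails. The labels do not say whether the libraries of a group came from separate embryos or cultures, so p-values measure the spread between these libraries, which may be technical.

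The RNA exosome trims and degrades RNA from its 3′ end. Dis3 and Exosc10 carry its nuclease activity, and many of its nuclear substrates are RNAs without poly(A) tails. 7SK RNA (Rn7sk) holds the kinase P-TEFb in an inactive particle and thereby restrains transcript elongation by RNA polymerase II. 7SL RNA (Rn7s1 and Rn7s2) is the scaffold of the signal recognition particle, which directs nascent secreted and membrane proteins to the endoplasmic reticulum. Rpph1 is the RNA of ribonuclease P, which cuts the 5′ leader from tRNA precursors, and Rmrp is that of the related ribonuclease MRP, which acts on ribosomal RNA precursors. Terc carries the template with which telomerase extends chromosome ends, and Vaultrc5 belongs to the vault particle. RNA polymerase III makes all of these RNAs except Terc, which RNA polymerase II makes.

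The sequences of these RNAs fixed what could be measured. Those shown are taken from GENCODE M21 transcripts on GRCm38, written 5′ to 3′ as DNA. The 7SL genes Rn7s1 (chromosome 12, 69159295 to 69159594, plus strand) and Rn7s2 (chromosome 12, 69361182 to 69361481, minus strand) are identical in 300 of 300 bases, so no read can be assigned to one of them.
Rn7sk lies on chromosome 9 at 78175303 to 78175633 on the minus strand and is 331 bases long. Its first 110 bases are shown with every GATC in capitals (bases 13 to 16, 42 to 45 and 64 to 67), because GAUC repeats in this 5′ hairpin are known in human 7SK as the contact of the inhibitor protein Hexim1.
Rn7sk, bases 1 to 110: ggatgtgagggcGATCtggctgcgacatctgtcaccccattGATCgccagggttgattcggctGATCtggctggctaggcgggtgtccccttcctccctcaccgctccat
GATC is its own reverse complement and its copies here do not overlap. At least 1 GATC stood in the first 110 bases of 25.5% of 138029 GENCODE transcripts, and at least 3 in 0.427% of them.

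Rmrp lies on chromosome 4 at 43492783 to 43493063 on the minus strand. Its longer model of 281 bases, annotated as a lincRNA (ENSMUSG00000115420.1), contains the shorter model of 271 bases, annotated as a ribozyme (ENSMUSG00000088088.1), as bases 6 to 276. The shorter model is in capitals below, and only the 10 bases in lower case tell the models apart.
Rmrp: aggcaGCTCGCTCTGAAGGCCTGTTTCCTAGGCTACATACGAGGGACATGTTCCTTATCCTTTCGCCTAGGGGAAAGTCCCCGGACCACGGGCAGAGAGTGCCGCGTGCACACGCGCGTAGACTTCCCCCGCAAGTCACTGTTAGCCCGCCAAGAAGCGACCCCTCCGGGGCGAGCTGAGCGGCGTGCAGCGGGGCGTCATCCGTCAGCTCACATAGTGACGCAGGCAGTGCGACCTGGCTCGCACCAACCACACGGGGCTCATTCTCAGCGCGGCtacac
All reads of Rmrp were assigned to the longer model in each of the 12 libraries, and the value of Rmrp below is that of the longer model. Rpph1 lies on chromosome 14 at 50807449 to 50807767 on the minus strand and is 319 bases long. Its first 150 bases are shown for comparison with Rmrp, the other member of this ribonuclease pair.
Rpph1, bases 1 to 150: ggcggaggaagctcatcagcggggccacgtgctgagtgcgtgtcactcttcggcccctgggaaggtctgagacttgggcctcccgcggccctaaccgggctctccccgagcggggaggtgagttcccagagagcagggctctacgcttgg
Apart from the 7SL pair and the nested Rmrp models, no 2 of these RNAs shared a run of more than 10 bases. Terc lies on chromosome 3 at 96414437 to 96414859 on the minus strand and is 423 bases long. Its ends are shown with the telomere template CTAACCC (bases 29 to 35) and the ACA 3 bases from the 3′ end in capitals. That ACA is the mark of box H/ACA RNAs.
Terc, bases 1 to 100: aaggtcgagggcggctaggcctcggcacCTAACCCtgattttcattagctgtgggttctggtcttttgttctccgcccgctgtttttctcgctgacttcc
Terc, bases 364 to 423: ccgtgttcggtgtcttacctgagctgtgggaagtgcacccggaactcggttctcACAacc
CTAACCC, searched on both strands, stood in the first 100 bases of 0.624% of 139316 transcripts, and an ACA in that end position in 2.45% of 141767.

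The libraries held 14936200 to 32397204 counts. Dis3 averaged 38.4 ± 9.18 counts per 1000000 counts of the library (CPM) in shDis3, 140 ± 25.2 CPM in shExosc10 and 130 ± 28.5 CPM in shLuc (SD, n = 4 each). Exosc10 averaged 115 ± 16.8 CPM in shDis3, 26.1 ± 5.46 CPM in shExosc10 and 97.7 ± 19.2 CPM in shLuc. The log2 fold change was -1.78 for Dis3 in shDis3 against shLuc, with an adjusted p of 0.0581 in edgeR's quasi-likelihood test, which missed the threshold of 0.05. It was -1.89 for Exosc10 in shExosc10 against shLuc (adjusted p 0.00502). All 10 erythroid markers were detected in every library, among them Gata1 (82.5 to 132 CPM), Klf1 and Kit, and their sum lay between 1343 and 3204 CPM. Over all genes, shLuc replicate 4 resembled shDis3 replicate 3, and shDis3 replicate 4 resembled shExosc10 replicate 1. Comparisons are therefore given also without shLuc 4, shDis3 4 and shExosc10 1. With each group's mean removed, the log2 CPM of these pairs correlated at 0.63 and 0.619. Other pairs were as close on that scale, such as shLuc 4 with shExosc10 1 (0.657) and shDis3 2 with shLuc 2 (0.773). The 7 megakaryocyte markers, all detected in every library, summed to 272 to 351 CPM in shDis3, to 268 CPM in shExosc10 1 and 119 to 142 CPM in the other shExosc10 libraries, against 388 CPM in shLuc 4 and 60.3 to 111 CPM in the other shLuc libraries. The 6 granulocyte markers, also all detected, summed to 1739 to 4633 CPM in shDis3 and 1085 to 1710 CPM in shExosc10, against 4341 CPM in shLuc 4 and 661 to 1318 CPM in the other shLuc libraries. Their part in the results below was not tested.

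Together the RNAs took 2.31 ± 0.928% of all counts in shDis3, 2.47 ± 0.373% in shExosc10 and 3.38 ± 2.23% in shLuc (SD, n = 4 each). None of them changed past the threshold in a knockdown. The larger contrast was between libraries of the control group, where shLuc 1 held 6.01% and shLuc 4 held 1.33%. In bulk RNA, fewer cells with an RNA and less of it per cell cannot be told apart.

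**Figure D1:**
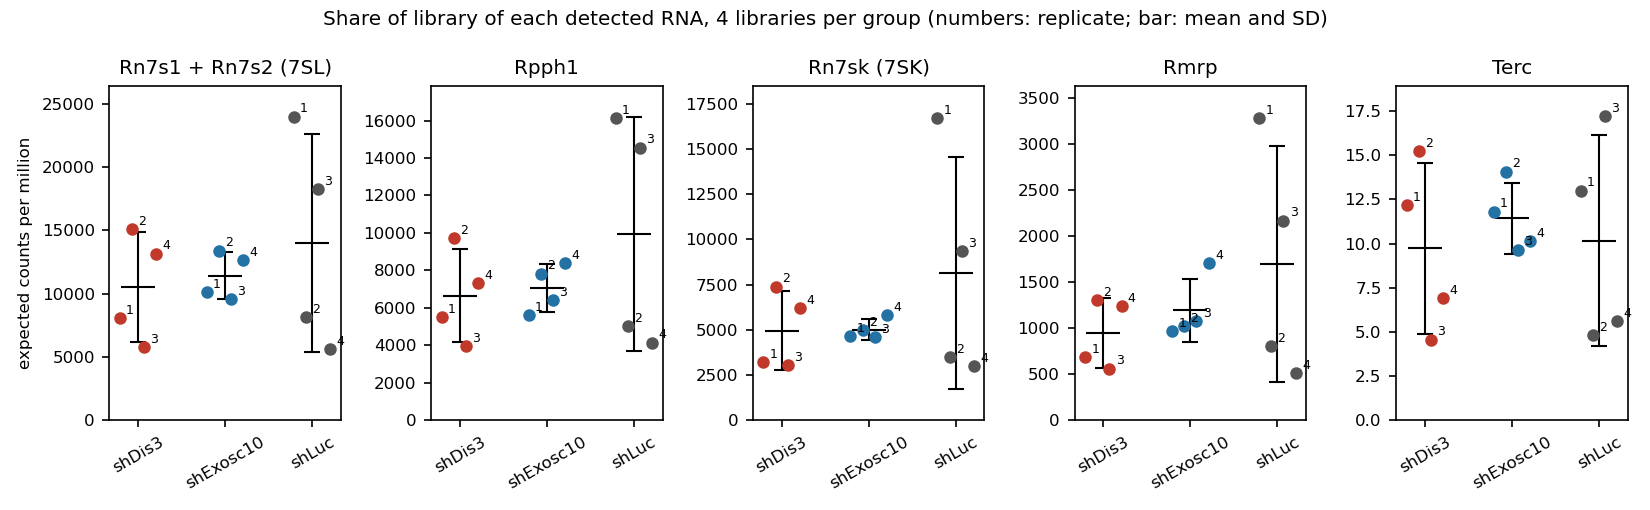
Expected counts per 1000000 counts of each library (CPM) for the 7SL pair, Rpph1, Rn7sk, Rmrp and Terc (linear axes from 0), with points for the 4 libraries of shDis3, shExosc10 and shLuc and bars for mean and SD. The shLuc libraries 1 and 3 stand above all others for the first 4 RNAs, while shLuc 2 and 4 lie among the lowest, so the groups overlap.

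Rn7sk had 3199, 7388, 3029 and 6185 CPM in shDis3 replicates 1 to 4, 4634, 4987, 4581 and 5807 CPM in shExosc10, and 16682, 3509, 9356 and 2978 CPM in shLuc. The highest and the lowest library of all 12 were both controls, 5.60-fold apart, and the shExosc10 libraries lay closest together. The mean was 4950 ± 2178 CPM in shDis3, 5002 ± 566 CPM in shExosc10 and 8131 ± 6391 CPM in shLuc (SD, n = 4 each). In shDis3 against shLuc the log2 fold change was -0.84 (SE 0.50), a fold of 0.557 with a 95% interval of 0.265 to 1.17. In shExosc10 against shLuc it was -0.80 (SE 0.50), a fold of 0.575 with an interval of 0.274 to 1.21. The unadjusted p was 0.112 for shDis3 and 0.132 for shExosc10, and the adjusted p was 0.99985 and 1 in edgeR's quasi-likelihood test. The shDis3 interval thus holds both no change and a decrease to 0.265 of the control level. Genes with at least 90% identity to Rn7sk over 50 bases or more numbered 10, and 8 of them had reads. RSEM credited them with 0.163 to 0.306% of the Rn7sk count, mostly in Gm26315 and Gm24447, which are identical to Rn7sk over 235 and 241 bases. Reads from those stretches cannot be assigned to one gene, so the Rn7sk count depends on that division.

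The 7SL pair was the most abundant of these RNAs in all 12 libraries. Summed, Rn7s1 and Rn7s2 had 8091, 15082, 5791 and 13158 CPM in shDis3 replicates 1 to 4, 10103, 13400, 9554 and 12633 CPM in shExosc10, and 23971, 8161, 18236 and 5635 CPM in shLuc. As for Rn7sk, the 2 highest and the lowest library were controls, and the groups overlapped. The means were 10530 ± 4322 CPM in shDis3, 11423 ± 1880 CPM in shExosc10 and 14001 ± 8591 CPM in shLuc (SD, n = 4 each). With the pair fitted as 1 feature, the log2 fold change was -0.52 (SE 0.44) in shDis3 against shLuc and -0.37 (SE 0.44) in shExosc10 against shLuc. The 95% intervals of the fold were 0.366 to 1.34 and 0.406 to 1.48, with adjusted p of 0.99986 and 0.99994 in edgeR's quasi-likelihood test.

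RSEM credited Rn7s1 with 19.4 to 32.5% of the pair's counts, although their sequences do not differ. The share averaged 24.8 ± 3.87% in shDis3, 27.8 ± 6.08% in shExosc10 and 25.8 ± 4.24% in shLuc (SD, n = 4 each). Fitted apart in shDis3 against shLuc, the log2 fold changes were -0.64 (SE 0.49) for Rn7s1 and -0.47 (SE 0.43) for Rn7s2. In shExosc10 against shLuc the values were -0.34 (SE 0.49) for Rn7s1 and -0.38 (SE 0.43) for Rn7s2. Differences between these gene entries have no meaning in terms of 7SL RNA. Similar copies numbered 15, of which 6 had reads, led by Rn7s6, and came to at most 0.136% of the Rn7s1 count. Rps29, a ribosomal protein gene with 208 to 528 CPM, lies 109 bases from Rn7s1 on the opposite strand.

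Rpph1 came next to the 7SL pair by counts in 11 of 12 libraries. The exception was shLuc 1, where Rn7sk was slightly higher. It had 5522, 9719, 3943 and 7343 CPM in shDis3 replicates 1 to 4, 5607, 7825, 6424 and 8368 CPM in shExosc10, and 16112, 5007, 14559 and 4145 CPM in shLuc. Here shDis3 3 and shLuc 4 were the lowest libraries, and shLuc 1 and 3 the highest. The mean was 6632 ± 2483 CPM in shDis3, 7056 ± 1267 CPM in shExosc10 and 9956 ± 6254 CPM in shLuc (SD, n = 4 each). The log2 fold change was -0.70 (SE 0.43) in shDis3 against shLuc, with a 95% interval of the fold of 0.327 to 1.17. It was -0.57 (SE 0.43) in shExosc10 against shLuc, with an interval of 0.356 to 1.27. Ccnb1ip1, whose transcript shares 233 bases with Rpph1 on the same strand, had at most 0.700 CPM.

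Rmrp, the other RNA of the ribonuclease pair, was below Rpph1 in every library, and Rpph1 had 4.90 to 8.08 times its counts. It had 690, 1303, 562 and 1238 CPM in shDis3 replicates 1 to 4, 972, 1020, 1077 and 1709 CPM in shExosc10, and 3285, 808, 2170 and 513 CPM in shLuc. Controls again held both ends of the range, which at 6.41-fold was the widest of these RNAs, and shExosc10 4 stood above the other shExosc10 libraries. The mean was 948 ± 377 CPM in shDis3, 1195 ± 346 CPM in shExosc10 and 1694 ± 1283 CPM in shLuc (SD, n = 4 each). In shDis3 against shLuc Rmrp had a log2 fold change of -0.95 (SE 0.51), a fold of 0.516 with a 95% interval of 0.243 to 1.10. The unadjusted p of 0.0813 was the lowest of these RNAs in the main fit of all 12 libraries, and the adjusted p was 0.99985 in edgeR's quasi-likelihood test. In shExosc10 against shLuc the log2 fold change was -0.60 (SE 0.51). Ccdc107, which overlaps Rmrp on the opposite strand, had 9.12 to 15.2 CPM.

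Terc was the rarest of the detected RNAs, with 135 to 381 counts per library. It had 12.2, 15.2, 4.57 and 6.91 CPM in shDis3 replicates 1 to 4, 11.8, 14.1, 9.66 and 10.2 CPM in shExosc10, and 13, 4.84, 17.2 and 5.59 CPM in shLuc. The groups overlapped throughout, with shLuc 3 highest and shDis3 3 lowest. The mean was 9.73 ± 4.87 CPM in shDis3, 11.4 ± 1.99 CPM in shExosc10 and 10.2 ± 5.97 CPM in shLuc (SD, n = 4 each). The log2 fold change was -0.18 (SE 0.43) in shDis3 against shLuc and 0.13 (SE 0.43) in shExosc10 against shLuc. The 95% intervals of the fold, 0.467 to 1.67 and 0.581 to 2.07, admit changes of either sign. Terc was the only RNA of the set whose fitted value in shExosc10 was not below that in shLuc, a direction that turned with other settings.

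Vaultrc5 lies on chromosome 18 at 36801866 to 36802008 on the plus strand and is 143 bases long. It had neither counts nor an effective length above 0 in any library. RSEM's effective length is the number of positions at which a fragment of the library's size can start in a transcript, and the mean fragment was 227 to 246 bases, more than the 143 bases of Vaultrc5. A gene in this state is a failed estimate, so its 0 does not measure the RNA, and no limit or test is given. Between 6225 and 6304 genes per library had an effective length of 0. The same held for 183 of 184 listed genes of other polymerase III transcripts, namely the 5S ribosomal RNA genes (180 symbols), Rny1, Rny3, Rnu6 and Bc1, of 79 to 168 bases. All 184 were listed at 0 in the 12 libraries.

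In the test across 17650 genes, edgeR called 0% of all genes in shDis3 against shLuc, 0.00567% in shExosc10 against shLuc and 0.0113% in shDis3 against shExosc10 at an adjusted p under 0.05. It called 0 of the 6 tested RNAs in each comparison. An unadjusted p under 0.05 was reached by 4.07% of all genes in shDis3 against shLuc, by 2.1% in shExosc10 against shLuc and by 5.98% in shDis3 against shExosc10, and again by 0 of the 6. DESeq2 called none of the 6 either, with 0.199%, 0.0145% and 0.411% of its genes called. The count at an unadjusted p depended on the setting. In shDis3 against shLuc, edgeR without the low-count filter had Rmrp at 0.0032 and Rn7sk at 0.0295, where 1559 of 41382 genes were under 0.05. In shExosc10 against shLuc it had Rn7sk at 0.0463 without the filter, beside 1115 genes. Without shLuc 4 alone, edgeR had Rmrp at 0.0088, Rpph1 at 0.0185 and Rn7sk at 0.0194 in shDis3 against shLuc, beside 1986 of 19777 genes. Without shLuc 4, shDis3 4 and shExosc10 1 it had Rmrp at 0.0029 and all the others but Terc (0.455) under 0.05 in that comparison, beside 2925 of 19126 genes. With a factor for libraries that resemble each other, edgeR had Rn7sk at 0.0177, Rpph1 at 0.0259 and Rmrp at 0.0482 in shExosc10 against shLuc. There 754 of 17650 genes were under 0.05. Leaving out other single libraries also brought some of these RNAs under 0.05. The biological coefficient of variation that edgeR fitted was 41.7 to 48.9% for these RNAs and 60% as the common value. It is 1 value per gene for the 3 groups, drawn towards that of other genes. The observed spread differed between groups, with an SD for Rn7sk of 566 CPM in shExosc10, 2178 CPM in shDis3 and 6391 CPM in shLuc. In shDis3 against shExosc10 the log2 fold changes were -0.05 for Rn7sk, -0.15 for the 7SL pair, -0.12 for Rpph1, -0.35 for Rmrp and -0.31 for Terc. The comparisons with shLuc share their control libraries, so a fold change below 0 in both is not independent evidence.

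**Figure D2:**
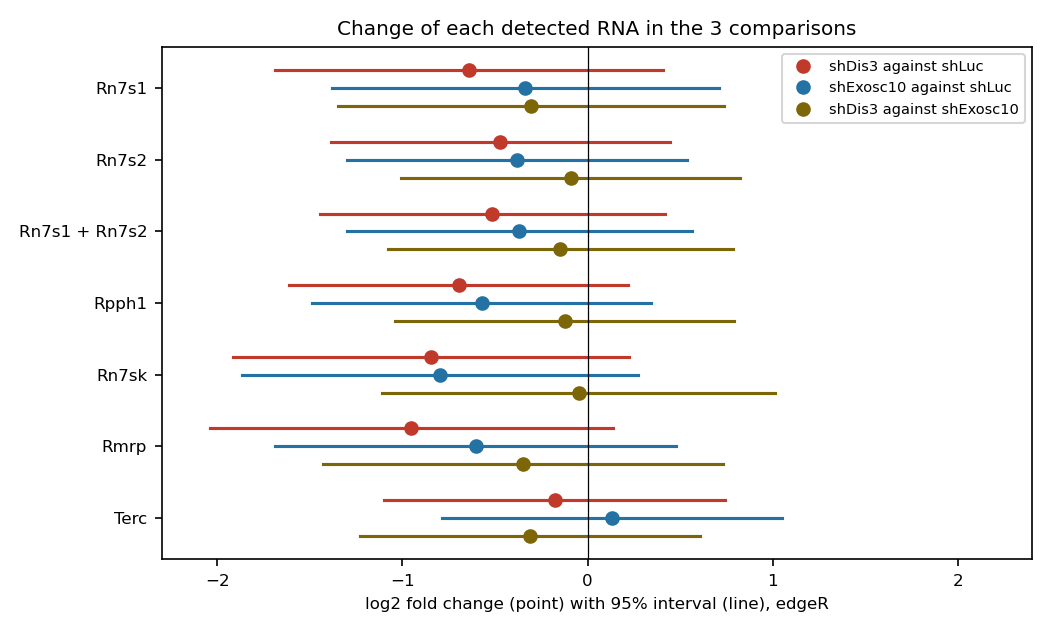
Log2 fold change (points) with its 95% interval (lines) from edgeR for each detected RNA in shDis3 against shLuc, shExosc10 against shLuc and shDis3 against shExosc10. Every interval crosses 0, including the lowest estimate, that of Rmrp in shDis3 against shLuc at -0.95.

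Without shLuc 4, shDis3 4 and shExosc10 1, the estimates in shDis3 against shLuc lay further below 0. The log2 fold change was then -1.37 for Rn7sk (adjusted p 0.116), -1.02 for Rn7s2 (0.137), -1.06 for Rn7s1 (0.294), -1.54 for Rmrp (0.0622), -1.12 for Rpph1 (0.131) and -0.34 for Terc (0.960) in edgeR's quasi-likelihood test. None of the 6 passed the threshold, while 4.04% of all genes did. In shExosc10 against shLuc the log2 fold change without these libraries was -1.08 for Rn7sk and -0.86 for Rmrp, with an adjusted p of 0.99981 for both and 0.0157% of all genes called. In shDis3 against shExosc10 it was -0.29 for Rn7sk and -0.68 for Rmrp, again with 0 of the 6 called, beside 3.23% of all genes. For Rn7sk, the 7SL pair, Rpph1 and Rmrp, shLuc 4 was the lowest control and shDis3 4 lay above the shDis3 mean. Leaving both out by itself lowers the estimates of these RNAs in shDis3 against shLuc. A library that resembled shLuc 4 over all genes, shDis3 3, was also low in them and was kept. Without shLuc 1, the library with the most of these RNAs, the estimates in shDis3 against shLuc came to -0.10 for Rn7sk, -0.06 for Rn7s1, -0.0093 for Rn7s2, -0.30 for Rmrp, -0.27 for Rpph1 and 0.03 for Terc. Those in shExosc10 against shLuc came to -0.04 for Rn7sk, 0.26 for Rn7s1, 0.094 for Rn7s2, 0.061 for Rmrp, -0.13 for Rpph1 and 0.36 for Terc. Without shLuc 4 alone, the estimate for Rn7sk was -1.16 and -1.11 in the same comparisons.

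The proportions among the abundant RNAs varied less than their sum, which spanned 4.52-fold over the libraries. The 7SL pair had 1.44 to 2.69 times the counts of Rn7sk in single libraries, with means of 2.15 ± 0.266 in shDis3, 2.28 ± 0.273 in shExosc10 and 1.90 ± 0.364 in shLuc (SD, n = 4 each). Rpph1 had 0.966 to 1.73 times the counts of Rn7sk, with means of 1.38 ± 0.236 in shDis3, 1.41 ± 0.149 in shExosc10 and 1.34 ± 0.256 in shLuc. Rmrp had 0.194 ± 0.0173 of the Rn7sk count in shDis3, 0.236 ± 0.0411 in shExosc10 and 0.208 ± 0.0287 in shLuc. The groups overlapped in each of these ratios. Of the library pairs that lay close over all genes, the summed share of shDis3 3 was 1.0 times that of shLuc 4, and single RNAs were 0.951 to 1.10 times, apart from Terc at 0.816. The summed share of shDis3 4 was 1.31 times that of shExosc10 1, and Terc stood at 0.585 times. Terc kept to the others less closely, at 0.779 to 3.81 counts per 1000 counts of Rn7sk.

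Annotated small nuclear and small nucleolar RNAs, of other families, mostly moved with them from library to library. Annotated snRNAs took 0.0216, 0.0422, 0.0080 and 0.0199% of counts in shDis3 replicates 1 to 4, 0.0198, 0.0450, 0.0225 and 0.0400% in shExosc10, and 0.0758, 0.0187, 0.0883 and 0.0051% in shLuc. Annotated snoRNAs and scaRNAs took 0.0199 to 0.0696% in shDis3, 0.0379 to 0.0745% in shExosc10 and 0.0195 to 0.169% in shLuc, with the highest value in shLuc 1 and the lowest in shLuc 4. Both classes were highest in shLuc 1 and 3 and lowest in shLuc 4, as was Rn7sk. In shDis3 4 they parted. The log2 of the share over its mean was -0.77 for snRNAs and -0.45 for snoRNAs with scaRNAs there, beside 0.13 for the 7SL pair and 0.04 for Rn7sk. Any gene of these classes with an effective length of 0 is a failed estimate, so the sums are not levels of the whole classes. At most 12 genes with an effective length of 0 had counts in a library. Mean fragment size was 236 to 238 bases in shDis3, 227 to 246 bases in shExosc10 and 232 to 243 bases in shLuc. It was shortest in shExosc10 1, where the summed share was 2.13%, and next shortest in shLuc 1. Mitochondrial genes, which are in the library totals, took from 9.79% of counts in shLuc 4 to 20.9% in shDis3 4. Olfactory receptor genes, listed as a sign of residual genomic DNA, summed to 7.32 CPM in shDis3 3 and to 665 CPM in shDis3 2. These were the lowest and the highest value, and shDis3 2 also had the fewest counts. The part of RNA input, of size selection, of residual DNA and of cell content in this variation was not tested.

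**Figure D3:**
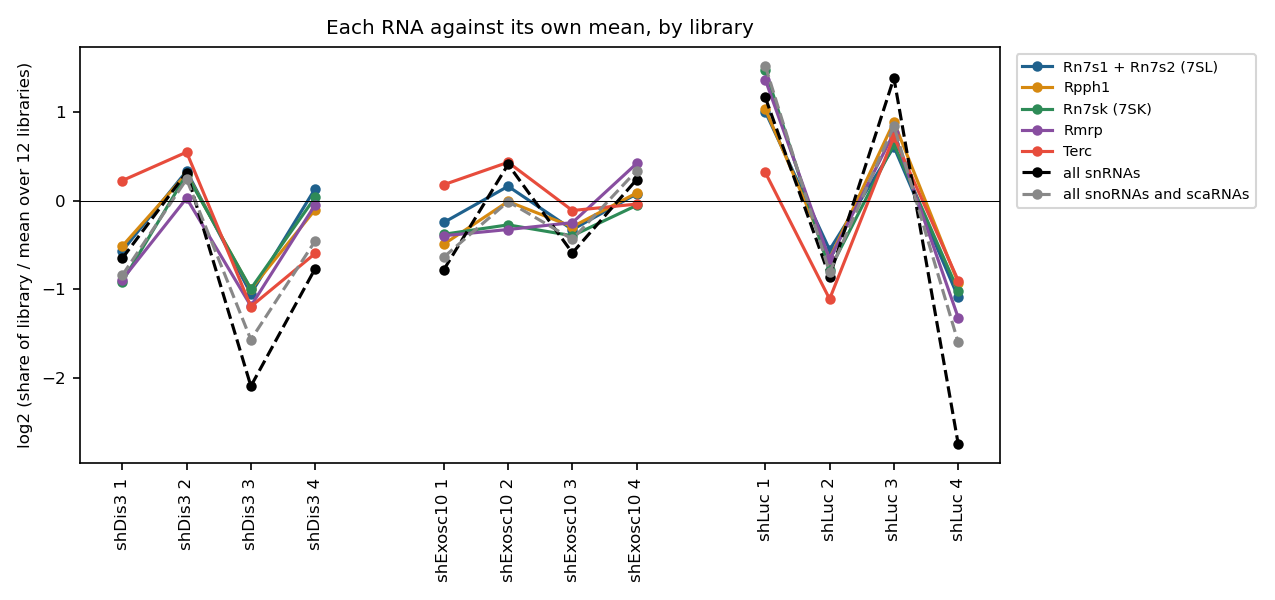
Share of each library taken by the 7SL pair, Rpph1, Rn7sk, Rmrp, Terc (solid lines) and by all snRNAs and all snoRNAs with scaRNAs (dashed lines), as log2 of the share over its mean across the 12 libraries. The lines mostly run together from library to library. For nearly all of them shLuc 1 and 3 lie above 0, and shLuc 4 and shDis3 3 about 1 log2 unit or more below it. In shDis3 4 the snRNA line lies at -0.77 and that of the 7SL pair at 0.13.

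Profiles over the 12 libraries were compared with 13999 genes that have a symbol other than Gm and Rik names, with the identical 7SL entries summed, a choice made after seeing the data. The profile most like that of Rn7sk was that of Scarna13 (Pearson r 0.991 of log2 CPM), a guide RNA of Cajal bodies. It was followed by Rmrp (0.969), Rpph1 (0.968), Scarna10 (0.965) and the 7SL pair (0.964). For Rmrp the nearest were the snoRNA Snora73a (0.991), Scarna13 (0.977) and Snord17 (0.976), then Scarna10 and Rn7sk (0.969 each). For Rpph1 they were Snord17 (0.978), the 7SL pair (0.976), Rn7sk (0.968), Rmrp (0.966) and Scarna10 (0.965). For the 7SL pair they were Rpph1 (0.976), the histone gene Hist1h2ac (0.971), Snord17 (0.966), Rn7sk (0.964) and Snora73a (0.963). Terc had its nearest profiles in Snora23 (0.897), Cox14 and Hist2h4 (0.850 each), and Rnu3b4 and Rnu3b2 (0.823 each). These correlations describe 12 libraries that share their preparation and depth differences, and they carry no p-value.

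The unit decided how much of the transcriptome these RNAs appeared to be. By counts they made up 1.33 to 6.01% of a library, and by length-scaled transcript units (TPM) 17.0 to 39.3%. TPM divides counts by effective length, which was 97.7 to 111 for Rn7sk of 331 bases, 72.0 to 82.9 for the 7SL genes of 300 bases, 87.5 to 99.8 for Rpph1 of 319 bases and 57.2 to 66.7 for Rmrp of 281 bases. Rn7s2 ranked 4 by mean CPM and 1 by mean TPM among all genes, Rpph1 5 and 2, Rn7sk 6 and 5, Rmrp 51 and 8, and Terc 8120 and 1979. Per length, in TPM, the order was the 7SL pair, Rpph1, Rn7sk, Rmrp and Terc in 12 of 12 libraries. In TPM the pair had 1.51 to 2.17 times the level of Rpph1, Rpph1 had 1.07 to 1.92 times that of Rn7sk, and Rn7sk had 2.03 to 3.46 times that of Rmrp. Rmrp had 173 to 763 times the TPM of Terc.

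Because TPM sum to the same total, the share of these RNAs set what was left for all other genes. Other genes held 72.3 to 82.9% of TPM in shDis3, 74 to 80.4% in shExosc10 and 60.7 to 83.0% in shLuc, with the lowest value in shLuc 1. These RNAs averaged 22.4% of TPM in shDis3, 23.2% in shExosc10 and 26.6% in shLuc. On the log2(TPM + 1) scale the median change of 11756 genes was 0.19 in shDis3 against shLuc, 0.03 in shExosc10 against shLuc and 0.17 in shDis3 against shExosc10. The count fit, over 17650 genes and with TMM scaling of the libraries, had 0.02, 0.02 and 0.01. Scaled by library totals alone, the count fit had 0.08, 0.02 and 0.07. The scales thus differ in scaling and in genes as well as in unit. The TPM shift between shDis3 and shExosc10 thus stood beside nearly equal shares of these RNAs, and its cause was not tested.

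**Figure D4:**
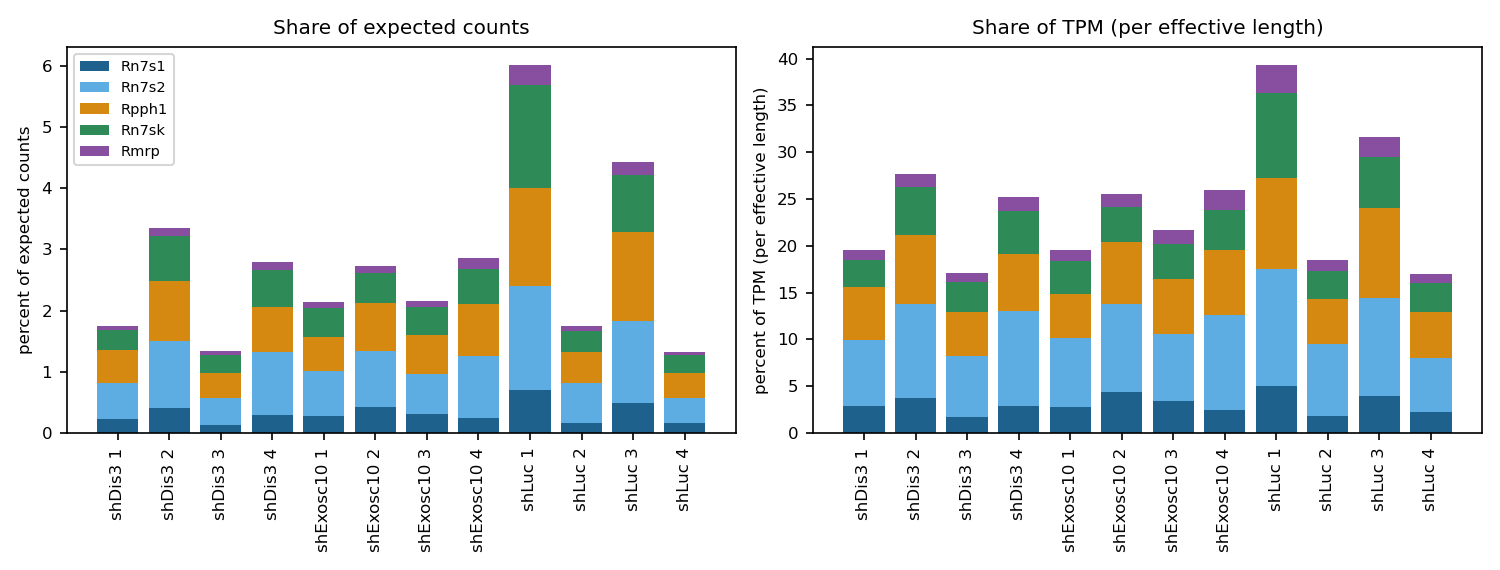
Percent of expected counts (left) and percent of TPM (right) taken by Rn7s1, Rn7s2, Rpph1, Rn7sk and Rmrp in each of the 12 libraries, as stacked bars from 0 (Terc and the RNAs at 0 are too small to draw). The same libraries rank highest on both scales, but the share reaches 6.01% by counts and 39.3% by TPM in shLuc 1.

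Proteins of the same particles were read from lists of the 7SK, signal recognition, ribonuclease P and MRP, telomerase and vault particles, of polymerase III and its factors, and of 3′ end binding and trimming. Of their genes, 78 were tested, and edgeR and DESeq2 each called 0 in all 3 comparisons. In shDis3 against shLuc 48 of the 78 had a log2 fold change above 0, with a median of 0.05 beside 0.02 for all genes. In shExosc10 against shLuc 43 did, with a median of 0.03 beside 0.02. At an unadjusted p under 0.05 edgeR had 1 of the 78 genes in shDis3 against shLuc, 3 in shExosc10 against shLuc and 3 in shDis3 against shExosc10, beside 4.07%, 2.1% and 5.98% of all genes. Counts this small do not set the lists apart from other genes. The last were the P-TEFb kinase Cdk9 (log2 fold change 0.50), Trove2 (-0.54) and the cytoplasmic exosome nuclease Dis3l (0.50).

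The 7 genes of the 7SK particle had a median log2 fold change of -0.08 in shDis3 and -0.11 in shExosc10 against shLuc. Larp7, which binds the 3′ end of 7SK, averaged 91.8 ± 26.5 CPM in shDis3, 91.2 ± 17.7 CPM in shExosc10 and 95.5 ± 13.3 CPM in shLuc (SD, n = 4 each). Ccnt1, the cyclin of P-TEFb, averaged 68.6 ± 19.4 CPM in shDis3, 74 ± 16.2 CPM in shExosc10 and 78.8 ± 8.55 CPM in shLuc. The 10 genes of the signal recognition particle and its receptor had medians of 0.04 and 0.07. Srp72, which binds 7SL together with Srp68, averaged 249 ± 24.9 CPM in shDis3, 239 ± 29.9 CPM in shExosc10 and 223 ± 18.3 CPM in shLuc. Srp54a, the subunit that binds the signal peptide, averaged 142 ± 25.7 CPM in shDis3, 170 ± 15.7 CPM in shExosc10 and 160 ± 17.3 CPM in shLuc. None of these 4 genes passed the adjusted threshold in either comparison.

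The 10 tested proteins of ribonucleases P and MRP had median log2 fold changes of 0.03 in shDis3 and 0.13 in shExosc10 against shLuc. Their most abundant members Pop1 and Pop5 had log2 fold changes of 0.16 (SE 0.24) and 0.02 (SE 0.25) in shDis3 against shLuc. The 9 genes of telomerase and H/ACA proteins had medians of 0.04 and 0.05. Nhp2 and Dkc1, core proteins of H/ACA particles including telomerase, had log2 fold changes of 0.04 (SE 0.23) and -0.01 (SE 0.22) in shDis3 against shLuc. Wrap53, which brings Terc to Cajal bodies, averaged 25 ± 5.04 CPM in shDis3, 18.7 ± 2.14 CPM in shExosc10 and 17.2 ± 3.07 CPM in shLuc, with a log2 fold change of 0.52 (SE 0.22) in shDis3 against shLuc and an unadjusted p of 0.0298 that did not survive adjustment in edgeR. The 3 vault genes had medians of 0.18 and -0.05, with log2 fold changes in shDis3 against shLuc of 0.23 (SE 0.18) for Mvp, the major vault protein, and 0.03 (SE 0.31) for Parp4.

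The 13 subunits of polymerase III had median log2 fold changes of 0.15 in shDis3 and 0.05 in shExosc10 against shLuc, and 10 of them were above 0 in shDis3. Polr1d, which polymerase I also uses, and Polr3c had 0.12 (SE 0.19) and 0.18 (SE 0.18) in shDis3 against shLuc. The 19 genes of polymerase III initiation and control had medians of 0.08 and -0.04. Gtf3c1, the largest subunit of the factor TFIIIC, averaged 241 ± 78.7 CPM in shDis3, 169 ± 50.9 CPM in shExosc10 and 178 ± 41.2 CPM in shLuc. Bdp1, a subunit of the factor TFIIIB, averaged 175 ± 50.2 CPM in shDis3, 202 ± 34.7 CPM in shExosc10 and 208 ± 26.4 CPM in shLuc. Snapc1 and Snapc3, subunits of the complex that binds the promoters of Rn7sk, Rmrp and Rpph1, had log2 fold changes of 0.47 (SE 0.21) and 0.38 (SE 0.16) in shExosc10 against shLuc, with unadjusted p of 0.0407 and 0.0324.

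The 7 genes of 3′ end binding and trimming had median log2 fold changes of 0.03 in shDis3 and 0.12 in shExosc10 against shLuc. Ssb, the La protein that binds the U-rich 3′ ends of new polymerase III transcripts, averaged 309 ± 83.4 CPM in shDis3, 410 ± 56.2 CPM in shExosc10 and 297 ± 33.3 CPM in shLuc. Its log2 fold change in shExosc10 against shLuc was 0.46 (SE 0.24) with an unadjusted p of 0.0777. Trove2, the Ro protein that binds misfolded small RNAs, averaged 12.2 ± 1.77 CPM in shDis3, 17.1 ± 2.15 CPM in shExosc10 and 10.9 ± 2.02 CPM in shLuc. Its log2 fold change of 0.65 (SE 0.20) in shExosc10 against shLuc had the lowest unadjusted p of all listed genes, 0.00526, and an adjusted p of 1 in edgeR's quasi-likelihood test. Eri1, a 3′ exonuclease, averaged 98.5 ± 5.71 CPM in shDis3, 111 ± 5.76 CPM in shExosc10 and 102 ± 10.5 CPM in shLuc. Wrap53, Snapc1, Snapc3, Trove2, Cdk9 and Dis3l are named because they passed the unadjusted threshold, which was seen only after the fit.

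**Figure D5:**
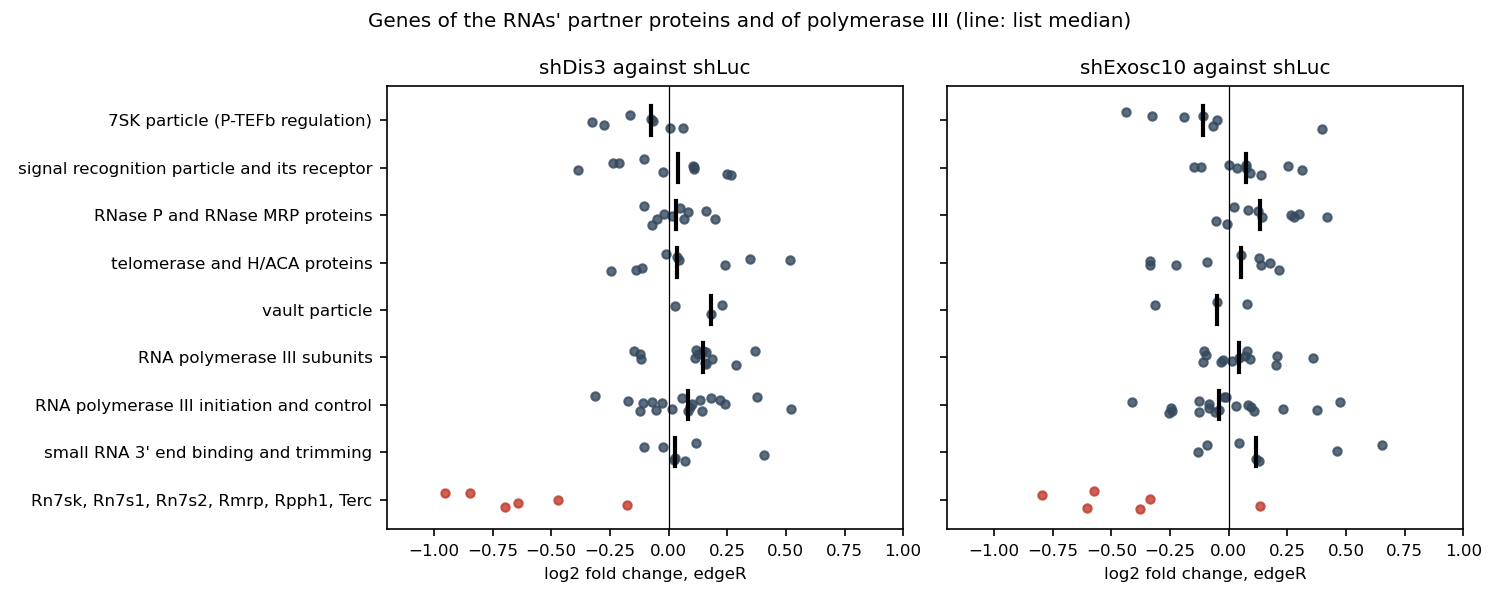
Log2 fold change in edgeR of each tested gene of the protein lists (dark points, with a line at the list median) and of the 6 detected RNAs (red points) in shDis3 against shLuc (left) and shExosc10 against shLuc (right). The protein genes lie on both sides of 0, and the RNAs lie between -0.95 and -0.18 in shDis3 and between -0.80 and 0.13 in shExosc10.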

How the data were processed

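Per the labels' protocols, RNA of sorted cells was extracted with Trizol and made into stranded total RNA libraries. Alignment and counting software, per the submitters' processing notes, included RSEM 1.3.0 and STAR 2.5.3a on build GRCm38 (mm10). Which annotation and strand setting they used was not given in the sources. RSEM expected counts, which divide ambiguous reads between genes, were deposited by the authors with TPM and effective lengths, per the file headers. Identifiers were matched to GENCODE M21 (55144 of 55385).

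Rounded expected counts entered a quasi-likelihood model (edgeR 4.0.16, R 4.3.3) with TMM scaling, the default low-count filter by group, all 12 libraries and Benjamini-Hochberg adjustment over 17650 genes. CPM in the text are per 1000000 gene counts. DESeq2 1.42.0, limma 3.58.1 on log2(TPM + 1) for genes with a TPM of at least 1 in 4 libraries, other scalings, a replicate block, a cluster factor and omitted libraries were alternatives. The 7SL sequence is not reported here. Similar copies were found with blastn 2.17.0. The members and lists were chosen with earlier results of these data known. Named genes were all members, the 2 most abundant genes per protein list and the 5 nearest profiles per RNA, given here with the 7SL entries summed. Intervals cover the spread between libraries only.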

Additional observations from a re-analysis of the deposited data

Results flagged for a closer look

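Of 24 sets of 4 libraries looked at (each RNA and their sum in each group), 1 held a library far from the others. Rmrp had 1709 CPM in shExosc10 replicate 4, against 972 to 1077 CPM in the other shExosc10 libraries. The rule is set to mark about 1 in 20 such sets of independent, normally distributed values. These sets are not independent, since they share libraries and include sums beside their parts. Rpph1, the related RNA, was also highest in that library within the group, at 8368 CPM against 5607 to 7825 CPM.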

How the results depend on the processing

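Under the alternative models, scalings, filters and omitted libraries, 0 of the RNAs and 0 of the listed protein genes were called in any comparison. The share of all genes called ran from 0 to 4.04% over these settings. Beside such shares, counts of 0 do not set the RNAs or the lists apart from other genes. Of 225 values under other settings 217 were unchanged in direction and side of the threshold, as were 297 of 312 with 1 library left out. These totals include the counts of called RNAs and called protein genes, which were 0 throughout and have no direction. They also include the summed share, which has a direction but no threshold. Fits that left out a library of the group outside the comparison are included too, and these can hardly move an estimate. Every adjusted p of these RNAs was far above the threshold in the main fit, so its side seldom could change. The totals thus say little about the size of the estimates. With 1 library left out, Rn7sk ran from -1.16 to -0.10 in shDis3 against shLuc. Log2 values that turned were: with limma on TPM, Terc at 0.17 in shDis3 against shLuc (where the median of all genes was 0.19), Rn7s1 at 0.082 in shExosc10 against shLuc and Rn7sk at 0.0049 in shDis3 against shExosc10. Terc in shExosc10 against shLuc came to -0.14 without shLuc 4, shDis3 4 and shExosc10 1, and to -0.064 with a factor for libraries that resemble each other. With that factor, Rn7sk was 0.25, Rn7s2 0.18 and Rpph1 0.17 in shDis3 against shExosc10. With single libraries left out, Terc ranged from -0.43 to 0.17 in shDis3 against shLuc. In shExosc10 against shLuc, Rn7s1 ranged from -0.63 to 0.26, Rn7s2 from -0.68 to 0.094, Rmrp from -0.94 to 0.061 and Terc from -0.10 to 0.50. In shDis3 against shExosc10, Rn7sk ranged from -0.31 to 0.14, Rn7s2 from -0.38 to 0.12, Rpph1 from -0.30 to 0.073 and the summed share from -0.51 to 0.16 percentage points. The summed share ranged from -1.76 to -0.20 points in shDis3 and from -1.59 to -0.035 points in shExosc10 against shLuc. The cause of these turns was not tested. Over all genes, calls in shDis3 against shLuc, shExosc10 against shLuc and shDis3 against shExosc10 numbered 0, 1 and 2 in edgeR, 28, 6 and 48 in DESeq2, 123, 10 and 179 without the filter, 32, 4 and 24 with the factor for similar libraries, and 772, 3 and 617 without the 3 libraries. The labels do not say that replicate numbers pair the libraries. With each group's mean removed from log2 CPM, the correlations of 12 same-numbered pairs lay between -0.47 and 0.773. Among the replicates numbered 2 they were 0.397, 0.773 and 0.373, and among those numbered 4 they were -0.45, 0.287 and -0.47. Differently numbered pairs also lay far apart, with 0.657 for shExosc10 1 and shLuc 4 and -0.739 for shDis3 2 and shExosc10 1. These values do not settle whether the numbers pair the libraries. With a replicate block the log2 fold change in shDis3 against shLuc was -0.65 for Rn7sk, -0.82 for Rmrp and -0.61 for Rpph1, and no call changed. Depth was lowest for Terc, at 135 to 381 counts per library.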
